A study of Homo sapiens with 10 samples.

Results

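The CDK-activating kinase is encoded by 3 genes, CDK7, CCNH and MNAT1, of 31015 genes in the deposited SLAM-seq tables of 22RV1 cells. The members were taken by name after the transcript identifier of each 3′ UTR interval had been matched to a gene symbol, which gave 13 of the 104653 intervals in each table. MNAT1 was chosen on its labelled reads, which differed between control and treated cells in these data, so its values against control are given as a description without a test. 22RV1 is an established human cell line from a prostate cancer that no longer responds to castration. There were 5 groups of 2 libraries each. Control cells had no treatment, and the other cells had 4 h of drug. The drugs were SRPIN340 (20 μM), an inhibitor of the splicing kinase SRPK1, and Endovion (50 μM, also called SCO-101), also used against SRPK1. The other treatments were THZ531, an inhibitor of the transcription kinases CDK12 and CDK13, and THZ531 with Endovion. The dose of THZ531 is 150 nM in the description of the series and 100 nM in the study's methods. During the last 10 min 4-thiouridine was added, which is built into new RNA and is read as a T-to-C change after alkylation. A read with such a change (a T>C read) is therefore taken as newly made mRNA. Every library had 4-thiouridine, so T>C reads from sequencing errors or sequence variants could not be told apart from new RNA. The labelled share is the percentage of a gene's reads that are T>C reads. Nothing in the labels says that replicates came from separate cultures, so p-values measure only the spread between these libraries.

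CDK7 is the catalytic subunit of the CDK-activating kinase, cyclin H (CCNH) is its regulatory subunit, and MNAT1, also called MAT1, is a RING finger protein that holds the pair together. The trimer phosphorylates the activating loop, or T-loop, of other cyclin-dependent kinases. As the kinase module of the general transcription factor TFIIH it phosphorylates the C-terminal domain of RNA polymerase II at promoters, while the core of TFIIH carries the helicases XPB (ERCC3) and XPD (ERCC2) and also opens DNA in nucleotide excision repair.

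The libraries held between 19315560 and 30047897 reads on genes, of which 5.04 to 5.70% were T>C reads. Markers of luminal prostate cells were present in each library (KRT18, a luminal keratin, at 354 to 484 CPM, its reads scaled to the library's reads on genes), and the markers of blood, endothelial and muscle cells were at or near 0. COL1A1, a fibroblast marker, was at 1.62 to 3.27 CPM while COL1A2, the other fibroblast marker, was at 0.

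MNAT1 lies on the plus strand of chromosome 14 (build hg38), and its 2 intervals are nested. Both start at base 60968350 of the 3′ UTR, the short one (ENST00000539616) ends at 60968678 after 329 bases and the long one (ENST00000261245) at 60969953 after 1604 bases. CCNH lies on the minus strand of chromosome 5 and has 3 intervals, of which the longest, chr5:87393417-87394986 (ENST00000508855, 1570 bases), holds the other two. CDK7 lies on the plus strand of chromosome 5 and has 8 intervals between 69262255 and 69277430. The libraries read the 3′ ends of mRNAs, so the last 30 bases of 5 intervals are printed here, 5′ to 3′ on the gene's strand, to show where each interval stops relative to a poly(A) signal. The capitals mark the signal AATAAA, searched on the gene's strand only, together with its variant ATTAAA.
MNAT1 short interval, chr14:60968649-60968678: tttttaaaaAATAAAgctataatttatatt
MNAT1 long interval, chr14:60969924-60969953: tggtttggcaAATAAAttccaaaaccttta
CCNH interval of ENST00000256897, chr5:87394265-87394294: aAATAAAccatcttcaaaagagctagaata
CCNH longest interval, chr5:87393417-87393446: ctgaaaatggggaagataaaaatgcctact
CDK7 interval of ENST00000256443, chr5:69277401-69277430: aaattattaccagttatttggaagatctga
Both MNAT1 intervals and the CCNH interval of ENST00000256897 held AATAAA in these 30 bases. The ends of the longest CCNH interval and of the printed CDK7 interval held neither form. A CDK7 interval not printed, that of ENST00000514676, lies within the printed one and held AATAAA in its last 30 bases. Among 68007 intervals of at least 100 bases, 31.2% held AATAAA in their last 30 bases and a further 8.19% held only ATTAAA.

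MNAT1 had few labelled reads in control cells and many in all treated cells. In control cells 5 of 185 reads were T>C reads in replicate 1, a labelled share of 2.70% (95% Wilson interval 1.16 to 6.17), and 6 of 54 in replicate 2, a share of 11.1% (5.19 to 22.2). With SRPIN340 153 of 272 reads (56.2%) and 182 of 517 reads (35.2%) were T>C reads. With Endovion the values were 133 of 518 (25.7%) and 141 of 310 (45.5%).

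The CDK12 inhibitor gave values in the same range. With THZ531 159 of 292 MNAT1 reads (54.5%) and 158 of 580 (27.2%) were T>C reads, and with THZ531 and Endovion 136 of 392 (34.7%) and 115 of 367 (31.3%). All 8 treated libraries were above both control libraries, as was so for 1.84% of the 10070 genes with at least 50 reads in each library, and the opposite order was found for 9.99% of them. Since this contrast chose MNAT1, nothing is read from its place in that count.

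By mean, the labelled share of MNAT1 ran from 6.91% ± 5.95 (SD, n = 2) in control cells to 33.0% ± 2.37 with THZ531 and Endovion, 35.6% ± 14.01 with Endovion, 40.8% ± 19.2 with THZ531 and 45.7% ± 14.9 with SRPIN340. The ranges of the treatments overlapped, except that both SRPIN340 libraries (35.2 and 56.2%) lay above both libraries with THZ531 and Endovion (31.3 and 34.7%). With 2 libraries in each group the order among treatments was not tested. None of the treatments reached down to the control libraries.

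The place of MNAT1 among all genes shifted accordingly. In control cells 8361 and 1240 of the 10070 genes had a higher labelled share than MNAT1, and in the treated libraries between 1 and 35 genes did. The median share of these genes was 4.35 to 4.97% in the 10 libraries and the 99th percentile was 19.02 to 26.5%.

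**Figure D1:**
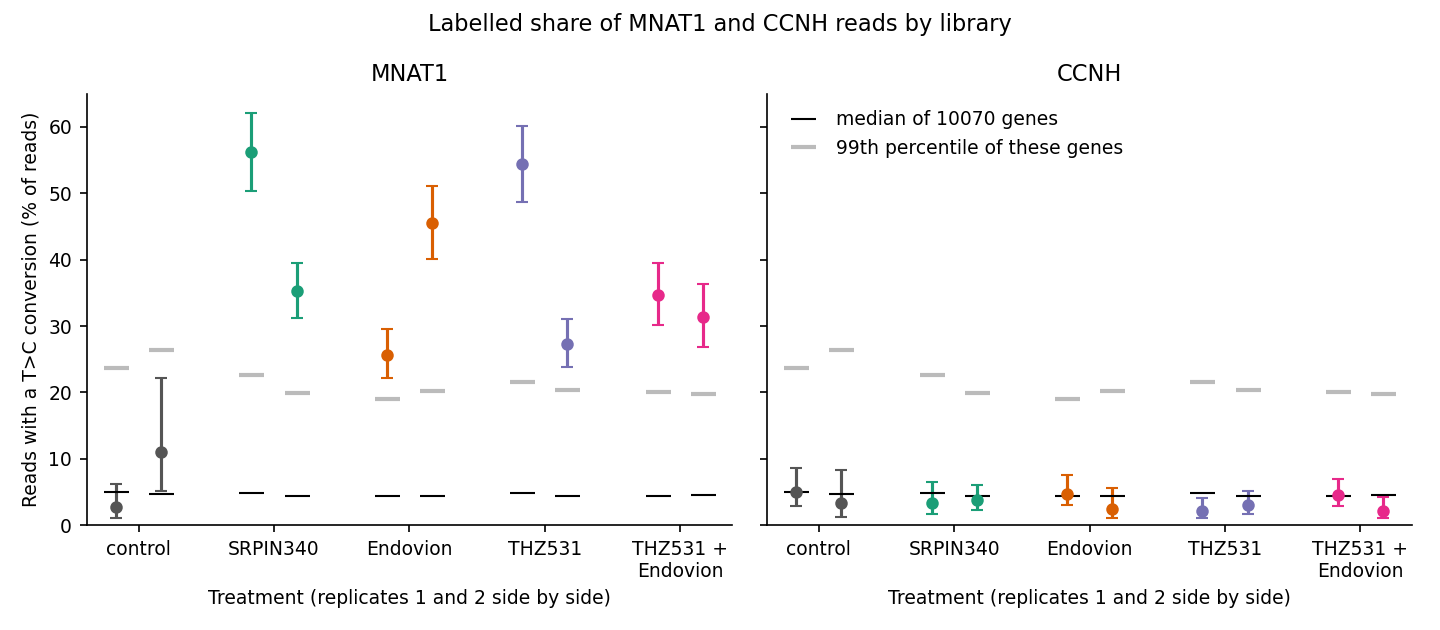
Labelled share (percentage of reads with a T>C conversion) of MNAT1 (left) and CCNH (right) in each library, with 95% Wilson intervals as error bars, which cover counting error only. Black dashes are the median and grey dashes the 99th percentile of 10070 genes in the same library. The 8 treated libraries of MNAT1 lie between 25.7 and 56.2%, above the 99th percentile, and all 10 values of CCNH lie between 2.11 and 5.08%.

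Among treated libraries the unlabelled reads varied more than the labelled reads. Over the 8 treated libraries the T>C reads of MNAT1 ranged from 115 to 182, a 1.58-fold span, whereas its reads without a conversion ranged from 119 to 422, a 3.55-fold span. The highest shares, in replicate 1 of SRPIN340 and of THZ531, were those of the libraries with the fewest unlabelled reads (119 and 133). Scaled to the T>C reads of the library, MNAT1 had 3.22 and 4.60 CPM in T>C reads in control cells and 101 to 154 in treated cells, without overlap (all 8 treated libraries were above both control libraries for 6.75% of 9946 genes).

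The total amount of MNAT1 mRNA was also higher in treated cells, by less than the labelled reads. Control cells had 6.79 and 2.33 CPM and treated cells 10.4 to 29.6, which did not overlap (all 8 treated libraries were above both control libraries for 15.1% of 14690 genes). Its reads without a conversion, at 6.61 and 2.07 CPM in control cells and 4.58 to 21.6 in treated cells, did overlap. In bulk libraries fewer cells that express a gene and less of its RNA per cell cannot be told apart.

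**Figure D2:**
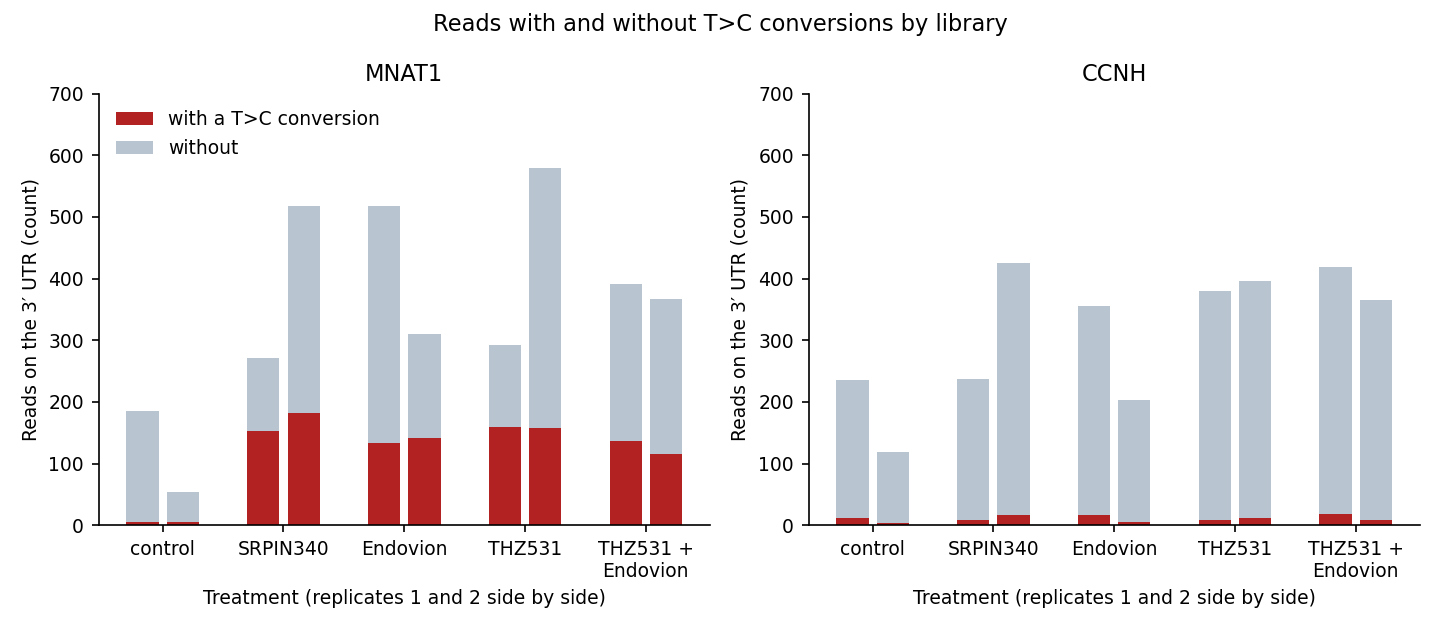
Reads of MNAT1 (left) and CCNH (right) in each library as stacked bars, with T>C reads in red and reads without a conversion in grey. The red part of MNAT1 is 5 and 6 reads in control cells and 115 to 182 in treated cells, and that of CCNH is 4 to 19 reads in all libraries.

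The difference could not be placed in one MNAT1 interval and not in the other, because both hold the same reads. Between 94.4 and 100% of the reads of the long interval fell in the 329 bases of the short one. Only 0 to 6 reads per library, and 0 to 2 T>C reads, lay in the stretch that belongs to the long interval alone. The short interval by itself gave shares of 2.72 and 7.84% in control cells and 25.8 to 56.1% in treated cells. Nearly all reads thus lay upstream of the end of the short interval printed above, and the long-only stretch had too few reads for a share of its own.

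Per base the pattern was the same. Of every 100 T positions that reads covered in MNAT1, 0.118 and 0.375 were converted in control cells and 1.05 to 2.42 in treated cells. A T>C read of MNAT1 carried 1.01 to 1.07 conversions in treated cells, 1 in control replicate 1 and 0.667 in replicate 2, where the table lists fewer conversions than T>C reads. Over all genes of a library this value was 0.967 to 1.01.

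In the fit over all libraries (edgeR, log2 fold change ± SE, n = 2 against 2), the T>C reads of MNAT1 were higher than in control cells by 4.75 ± 0.37 with SRPIN340, 4.88 ± 0.37 with Endovion, 5.02 ± 0.37 with THZ531 and 4.82 ± 0.38 with THZ531 and Endovion. Its total reads were higher by 1.57, 1.97, 2.21 and 2.02 in the same order, with SEs of 0.67 to 0.68. The labelled share was higher by 4.08, 3.54, 3.75 and 3.41, with SEs of 0.76 to 0.77. Without control replicate 1 the log2 difference in share was 2.10 to 2.78, and without control replicate 2 it was 4.32 to 5.003. Adding Endovion to THZ531 moved the T>C reads of MNAT1 by −0.20 ± 0.25, and adding THZ531 to Endovion by −0.05 ± 0.25, both within their SE.

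The partner CCNH did not share this pattern. In control cells 12 of 236 reads (5.08%) and 4 of 119 (3.36%) were T>C reads. With SRPIN340 there were 8 of 238 (3.36%) and 16 of 426 (3.76%), and with Endovion 17 of 356 (4.78%) and 5 of 203 (2.46%). No treated share was above that of control replicate 1.

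The libraries treated with THZ531 had equally low shares of CCNH. With THZ531 8 of 380 reads (2.11%) and 12 of 396 (3.03%) were T>C reads, and with THZ531 and Endovion 19 of 418 (4.55%) and 8 of 366 (2.19%). With 4 to 19 T>C reads per library, a modest change in labelling could not have been detected at this depth.

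None of the tests on the T>C reads of CCNH passed an adjusted p of 0.05 (edgeR's quasi-likelihood test, Benjamini-Hochberg adjustment over 9946 genes). The log2 difference in T>C reads was 0.47 ± 0.81 with SRPIN340 (adjusted p = 0.895), 0.70 ± 0.82 with Endovion (0.770), 0.59 ± 0.83 with THZ531 (0.757) and 1.10 ± 0.81 with both drugs (0.459). Of all genes, 1.04%, 2.66%, 7.46% and 8.1% passed in these comparisons. The labelled share differed by −0.19, −0.06, −0.71 and −0.26 (edgeR adjusted p between 0.814 and 0.986), where 0.181%, 0.442%, 0.342% and 1.02% of genes passed.

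Adding one drug to the other gave no call for CCNH either. The combination differed from THZ531 alone by 0.51 ± 0.79 in T>C reads (edgeR adjusted p = 0.948; 0.322% of genes passed) and from Endovion alone by 0.41 ± 0.78 (adjusted p = 0.931; 1.31% passed).

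The standing amount of CCNH mRNA rose with THZ531. TMM-scaled CPM values were 8.41 and 5.01 in control cells, 8.90 and 13.5 with SRPIN340, 13.6 and 10.04 with Endovion, 14.01 and 21.2 with THZ531, and 18.3 and 19.1 with THZ531 and Endovion. All 8 treated libraries were above both control libraries, as was so for 15.1% of the 14690 genes tested. The smallest gap lay between control replicate 1 and SRPIN340 replicate 1. The log2 difference in total reads passed with THZ531 (1.381 ± 0.29, edgeR adjusted p = 0.00342) and with both drugs (1.47 ± 0.29, adjusted p = 0.00251), where 16.6% of 14690 genes were called higher in each comparison.

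The SRPK1 inhibitors alone left CCNH below the threshold. The log2 difference in total reads was 0.74 ± 0.29 with SRPIN340 (edgeR adjusted p = 0.188) and 0.82 ± 0.29 with Endovion (adjusted p = 0.0855), in comparisons where 1.96% and 11.4% of genes passed in either direction. Without control replicate 1 both passed, at 1.17 (adjusted p = 0.0327) and 1.25 (adjusted p = 0.0166). Without control replicate 2 they were 0.38 (edgeR adjusted p = 0.746) and 0.45 (0.497). Under DESeq2 the value with Endovion passed (0.78, adjusted p = 0.0458).

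**Figure D3:**
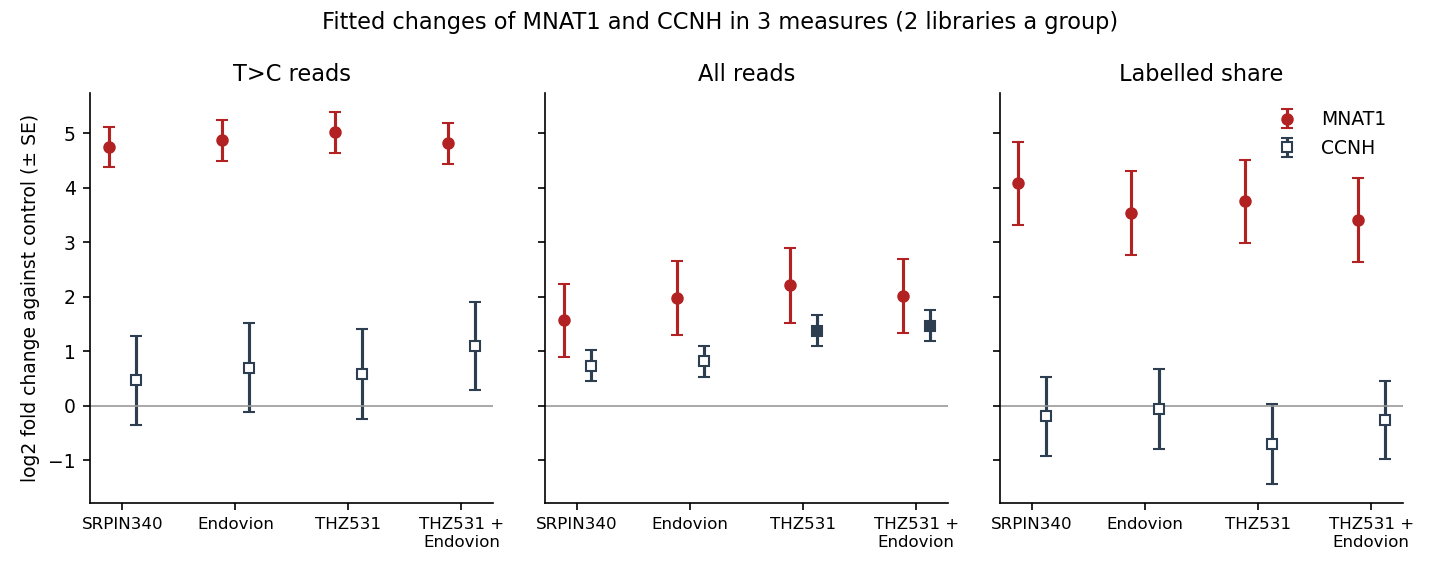
Fitted log2 fold change against control (points) with its standard error (bars) for MNAT1 (circles, described without a test) and CCNH (squares, filled where the adjusted p is under 0.05) in T>C reads, all reads and labelled share. MNAT1 lies between 3.41 and 5.02 in T>C reads and share, and CCNH between −0.71 and 1.10, with filled squares only for all reads with THZ531 and with both drugs.

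The 3 intervals of CCNH are nested too, and its reads were spread more widely than those of MNAT1. Between 44.5 and 83.7% of the reads fell in the 181 bases of ENST00000256897, whose end carries the signal printed above, and the lowest percentage was that of control replicate 2. Within those 181 bases the labelled share was 1.72 to 6.62% over the 10 libraries, and outside them 0 to 7.25%. Neither stretch of CCNH approached the 25.7% that was the lowest treated share of MNAT1.

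CDK7 could not be measured. Its 8 intervals held 0 reads in 9 libraries and 1 read, without a conversion, in replicate 2 of THZ531 and Endovion. A count of 0 allows up to 3 reads, or 0.0998 to 0.155 CPM in these libraries, whereas MNAT1 and CCNH were at 2.33 CPM or more. No test of CDK7 was possible.

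The sequence of CDK7 is listed more than once in these tables. Of its 8 intervals, 7 have an identical counterpart on an alternative contig of chromosome 5, also with 0 reads, and no MNAT1 or CCNH interval has one. Of 1345 intervals of at least 100 bases with such a counterpart, 77.8% had 0 reads in all libraries, beside 35.2% of 66662 intervals without one. The tables list no multimapping reads at all. The interval of TUBB, the gene of a β-tubulin, which was looked up after its value was seen, was likewise listed at 0, while its identical counterparts on 5 alternative contigs held 195 reads over all libraries. The part of these counterparts in the zeros of CDK7 was not tested.

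The genes next to CDK7 were read. CENPH, a centromere protein gene 24438 bases away, had 1272 to 2593 reads per library. CCDC125, 2745 bases away on the other strand, had 52 to 214 reads.

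Genes beside MNAT1 did not share its labelling. TRMT5, a tRNA methyltransferase gene 1476 bases away on the other strand, had 2691 to 4823 reads per library and a labelled share of 5.83 to 6.66% in control and 5.85 to 7.18% in treated cells, which overlap. SIX4, a homeobox gene, and SLC38A6, an amino acid transporter gene, had lower shares in treated than in control libraries, at 4.64 to 10.1% against 11.6 to 11.9% for SIX4 and at 0 to 13.2% against 20.8 to 25.0% for SLC38A6, the latter from 20 to 67 reads. RASA1, whose span overlaps that of CCNH on the other strand, was at 0.952 to 2.46% in control and 0.984 to 5.09% in treated cells. No interval of another gene overlapped an interval of a member.

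Among 11357 genes, the 5 whose log2 odds of a T>C read followed those of MNAT1 most closely over the 10 libraries were ENSG00000272822 (Pearson's r = 0.964), HMGB2 (0.952), ISG15 (0.932), CRISPLD1 (0.911) and MAP3K21 (0.910). The first of these had 51 to 151 reads per library and a share of 0 to 1.96% in control and 5.96 to 18.6% in treated cells. HMGB2, the gene of a high mobility group chromatin protein, was the only other gene with a share of at least 20% in all treated libraries and under 12% in both control libraries, limits chosen after the values of MNAT1 were seen. ISG15, an interferon-induced ubiquitin-like gene, had a share of 0.317 to 0.797% in control and 1.39 to 2.71% in treated cells.

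The share of HMGB2 was below that of MNAT1 in all 8 treated libraries. The labelled share of HMGB2 was 4.25 and 5.22% in control cells, 42.9 and 28.9% with SRPIN340, 23.5 and 32.0% with Endovion, 40.9 and 25.3% with THZ531, and 29.96 and 29.6% with both drugs. In each treated group the replicate with the higher share was the same for both genes, although the replicates with both drugs hardly differed. HMGB2 was picked by its likeness to MNAT1 over these same libraries, so nothing is read from that shared order. HMGB2 was read far more deeply, with 1302 to 4545 reads in control and 8674 to 22740 in treated libraries, and its treated T>C reads spanned 1.78-fold where its reads without a conversion spanned 3.26-fold.

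**Figure D4:**
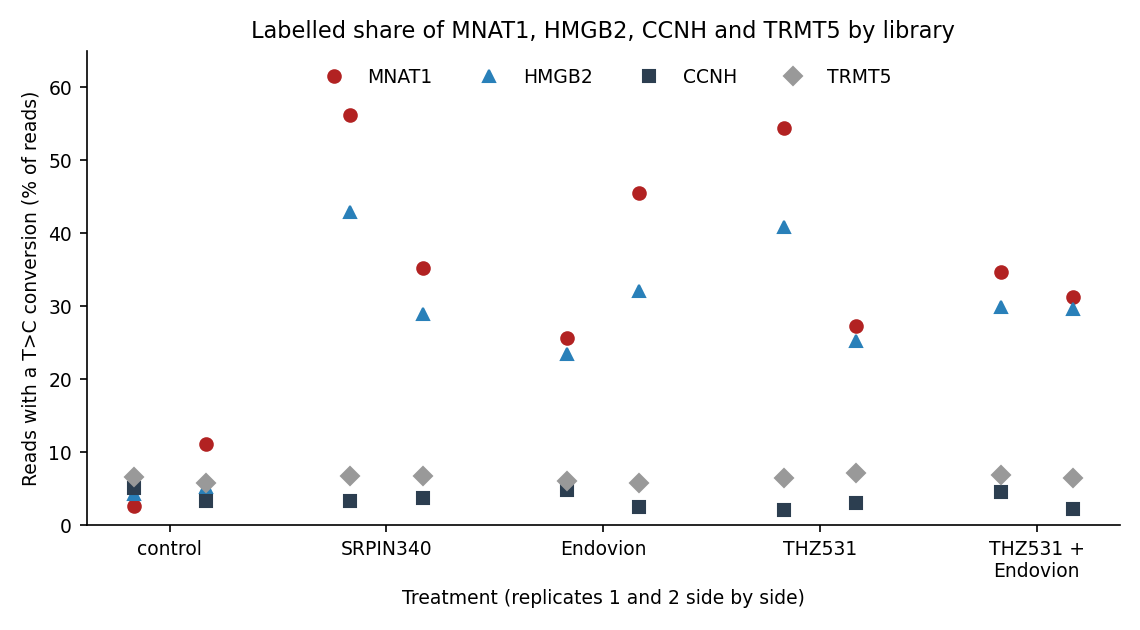
Labelled share in each library for MNAT1 (circles), HMGB2 (triangles), CCNH (squares) and TRMT5 (diamonds), the gene next to MNAT1. MNAT1 and HMGB2 lie at 23.5% or more in all treated libraries and peak in the same replicate of each group, whereas CCNH and TRMT5 stay at 2.11 to 7.18% in all libraries. HMGB2 was picked by its likeness to MNAT1 over these libraries.

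For CCNH, the genes with the most similar scaled T>C reads over the 10 libraries, among 9945 compared, were HIBADH (r = 0.960), PTTG1IP (0.925) and ADAR (0.922). CCNH had only 4 to 19 T>C reads per library, so these correlations rest on few counts. HIBADH had 22 to 86 reads per library and a labelled share of 13.6 to 38.5% in control and 10.5 to 30.2% in treated cells. ADAR, the gene of an RNA-editing adenosine deaminase, had a labelled share of 4.44 to 5.40% in control and 3.91 to 5.78% in treated cells.

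The other genes of the pathway were counted in 4 lists of 32 genes in all, with calls as above and with no call in labelled share in any list. In the core of TFIIH, 5 of 7 genes were testable in T>C reads and none passed in any treatment under edgeR or DESeq2, with 1 to 2 genes at an unadjusted p under 0.05, as were 10.4%, 14.1%, 21.2% and 21.4% of all genes with SRPIN340, Endovion, THZ531 and both drugs. The median log2 difference of the core was −0.03, −0.04, −0.03 and 0.30 in the same order, beside −0.01, −0.01, −0.02 and −0.01 over all genes. GTF2H4, a core subunit, was listed at 0 in all libraries, and its interval too has identical counterparts on 5 alternative contigs, with 17 reads over all libraries.

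In total RNA the core of TFIIH held calls in both directions. ERCC3, the helicase XPB, was called higher in all 4 treatments, by 0.63 ± 0.15 with SRPIN340 (edgeR adjusted p = 0.0424), 0.65 ± 0.15 with Endovion (0.0117), 0.47 ± 0.15 with THZ531 (0.0234) and 0.57 ± 0.15 with both drugs (0.00934), where 1.82%, 8.9%, 16.6% and 16.6% of all genes were called higher. Each of these calls was lost without control replicate 2, at 0.23 to 0.41, and without one or both libraries of the treatment, at 0.40 to 0.73. The call with SRPIN340 was also lost with a replicate block (edgeR adjusted p = 0.0673) and in the plain sum of intervals (0.0709). GTF2H2, a core subunit, fell by 0.88 with THZ531 (SE 0.21, edgeR adjusted p = 0.00562) and by 1.27 with both drugs (SE 0.22, adjusted p = 0.000622), with 276 and 242 reads in control libraries against 152 and 98 with THZ531 and 103 and 72 with both drugs. GTF2H2 has near-identical copies in the genome, so its reads are uncertain. ERCC2, the helicase XPD, had 391 and 315 reads in control libraries and 200 and 116 with both drugs, and fell by 0.87 (SE 0.22, edgeR adjusted p = 0.00808), a call that was lost without combination replicate 2 (−0.63). Thus 1 of 6 tested core genes was called lower with THZ531 and 2 with both drugs, where 14.1% and 12.4% of all genes were. These 3 genes were named after their values were seen.

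Of the 8 general initiation factors, 1 rose in T>C reads with SRPIN340, with Endovion and with both drugs, and 1 fell with THZ531. Of all genes 0.845%, 2.04% and 4.61% were called higher in those 3 treatments and 3.6% lower with THZ531. The median log2 difference of the 8 factors was 0.39, −0.04, 0.34 and 0.58 with SRPIN340, Endovion, THZ531 and both drugs. Over all genes it was −0.01, −0.01, −0.02 and −0.01, and the list as a set was not tested. The gene that rose was GTF2A1, a subunit of TFIIA, with 94 and 40 T>C reads in control libraries, 136 and 185 with SRPIN340, 154 and 117 with Endovion, and 120 and 109 with both drugs. Its log2 difference was 1.15 ± 0.28 with SRPIN340 (edgeR adjusted p = 0.0233), 1.30 ± 0.29 with Endovion (0.00300) and 1.15 ± 0.29 with both drugs (0.00619). Without control replicate 2 these were 0.78, 0.93 and 0.79 and no longer passed, and the call was also lost without SRPIN340 replicate 2 (0.97) and without Endovion replicate 1 (1.26). All 3 calls were lost in the plain sum of intervals (edgeR adjusted p = 0.398, 0.204 and 0.149), and that with SRPIN340 also under DESeq2 (0.106). In total reads GTF2A1 was higher by 1.46 ± 0.30 with Endovion (edgeR adjusted p = 0.0242) and by 1.14 ± 0.30 with both drugs (0.0265). Of all genes 8.9% and 16.6% were called higher there. With 1 library left out these ranged from 1.10 to 1.86 and from 0.78 to 1.54, and neither call held throughout. With SRPIN340 it was 1.02 ± 0.30 (edgeR adjusted p = 0.130). Its labelled share differed by 0.23, −0.07 and 0.14 with SRPIN340, Endovion and both drugs, none called.

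GTF2E1, a subunit of TFIIE, was the general factor that fell. It had 26 and 60 T>C reads in control libraries and 12 and 2 with THZ531, and its T>C reads fell by 2.57 on the log2 scale (SE 0.59, edgeR adjusted p = 0.00242). The call was lost without control replicate 2 (−1.64, adjusted p = 0.210) and without THZ531 replicate 2 (−2.02, adjusted p = 0.106), and in the plain sum of intervals (edgeR adjusted p = 0.0829). Its total reads, 805 and 743 in control libraries and 290 and 127 with THZ531, fell by 1.76 (SE 0.19, edgeR adjusted p = 1.74e-05).

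In total RNA more general factors passed. With THZ531 3 of 8 were called higher and 1 lower, where 16.6% and 14.1% of all genes were. With both drugs 4 were called higher and 1 lower, where 16.6% and 12.4% were. The median log2 difference of the 8 in total reads was 0.35, 0.42, 0.49 and 0.59 with SRPIN340, Endovion, THZ531 and both drugs. Over all genes it was 0.03, 0.02, −0.01 and −0.002. GTF2B, the gene of TFIIB, rose by 1.15 ± 0.20 with THZ531 (edgeR adjusted p = 0.000845) and by 1.37 ± 0.20 with both drugs (adjusted p = 0.000255), from 515 and 276 reads in control libraries to 793 and 698 and to 963 and 678. GTF2B was named after its values were seen.

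The kinases that carry a T-loop, many of them substrates of the CDK-activating kinase, had no call in T>C reads. None of the 7 passed in T>C reads in any treatment under edgeR or DESeq2, with 0 to 2 at an unadjusted p under 0.05. Their median log2 difference in T>C reads was −0.10, −0.08, −0.06 and −0.06 in the 4 treatments. In total RNA only CDK9 with THZ531 (0.87 ± 0.31, edgeR adjusted p = 0.0444) and CDK1 with both drugs (0.46 ± 0.15, adjusted p = 0.0355) were called, both higher, so 1 of 7 in each comparison where 16.6% of all genes were called higher. Both calls were lost without control replicate 2 (0.67 and 0.31) and without replicate 2 of the treatment (0.38 and 0.30), and that of CDK9 also without control replicate 1 (1.08). In the plain sum of intervals both missed the threshold (edgeR adjusted p = 0.0729 and 0.0566), as did CDK9 under DESeq2 (adjusted p = 0.0617) and with a replicate block (0.0546).

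Among 10 genes of nucleotide excision repair, in which the core of TFIIH works, 9 were testable in T>C reads. Of these, 1 was called lower with THZ531 and 1 with both drugs, where 3.6% and 3.49% of all genes were. Their median log2 difference in T>C reads was 0.12, 0.32, −0.30 and −0.11 with SRPIN340, Endovion, THZ531 and both drugs. ERCC4, the gene of the endonuclease XPF, had 22 and 12 T>C reads in control libraries and 0 in both THZ531 libraries. Against 3 counts per library it was at least 4.84-fold lower (edgeR adjusted p = 0.00165), which missed the threshold in the plain sum of intervals (0.0722). With THZ531 and Endovion ERCC4 had 0 and 4 T>C reads, beside 14 and 31 with Endovion alone, a difference of −3.37 ± 0.93 (edgeR adjusted p = 0.0498, 0.855% of genes called lower) that no longer passed without either Endovion library or without combination replicate 1, at −2.32 to −3.94. That difference also missed the threshold in the plain sum (edgeR adjusted p = 0.390), with a replicate block (0.0506), scaled by all reads (0.0543) and in the single interval (0.0747). Its total reads, 282 and 304 in control libraries, were 35 and 39 with THZ531 and 76 and 72 with both drugs, and they fell by 2.78 (SE 0.27, edgeR adjusted p = 7.41e-06) and by 1.69 (SE 0.25, adjusted p = 0.000218).

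In total RNA the 10 repair genes were called in both directions, 2 higher and 3 lower with THZ531 and 3 higher and 2 lower with both drugs, where 16.6% of all genes were called higher in each and 14.1% and 12.4% lower. RAD23B, a partner of the damage sensor XPC, rose by 0.64 ± 0.12 with THZ531 (edgeR adjusted p = 0.000962) and by 0.50 ± 0.12 with both drugs (0.00509), the latter lost without control replicate 2 (0.43). XPA, a damage-binding scaffold, was called higher at 0.81 ± 0.22 (0.0112) and 0.62 ± 0.22 (0.0441), and ERCC6, the transcription-coupled repair factor CSB, at 1.04 ± 0.27 with both drugs (0.0101). XPC was called lower with THZ531, at −0.50 ± 0.14 (0.0119). The calls of XPA, ERCC6 and XPC were each lost without at least 1 library, among them control replicate 2 for XPA (0.51 and 0.32) and ERCC6 (0.88) and control replicate 1 for XPC (−0.45), and that of XPA with both drugs was also lost under DESeq2 (adjusted p = 0.0534). These 4 genes were named after their values were seen.

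UVSSA, a gene of transcription-coupled repair, had 29 and 27 T>C reads in control libraries and 8 and 4 with both drugs. They fell by 1.87 (SE 0.60, edgeR adjusted p = 0.0394), a call that was lost when any library of the 2 groups was left out, at −1.55 to −2.33, under DESeq2 (adjusted p = 0.0872), without the filter on low counts (0.0568) and in the plain sum (0.112). Against Endovion alone (34 and 25 T>C reads) they fell by 2.19 (SE 0.60, edgeR adjusted p = 0.0464), which was lost without any of these 4 libraries, at −1.87 to −2.65, and under DESeq2 (adjusted p = 0.112). Its total reads were 758 and 771 in control libraries, 439 and 259 with THZ531 and 373 and 274 with both drugs, and they fell by 0.98 (SE 0.17, edgeR adjusted p = 0.000519) and by 0.95 (SE 0.17, adjusted p = 0.000713).

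**Figure D5:**
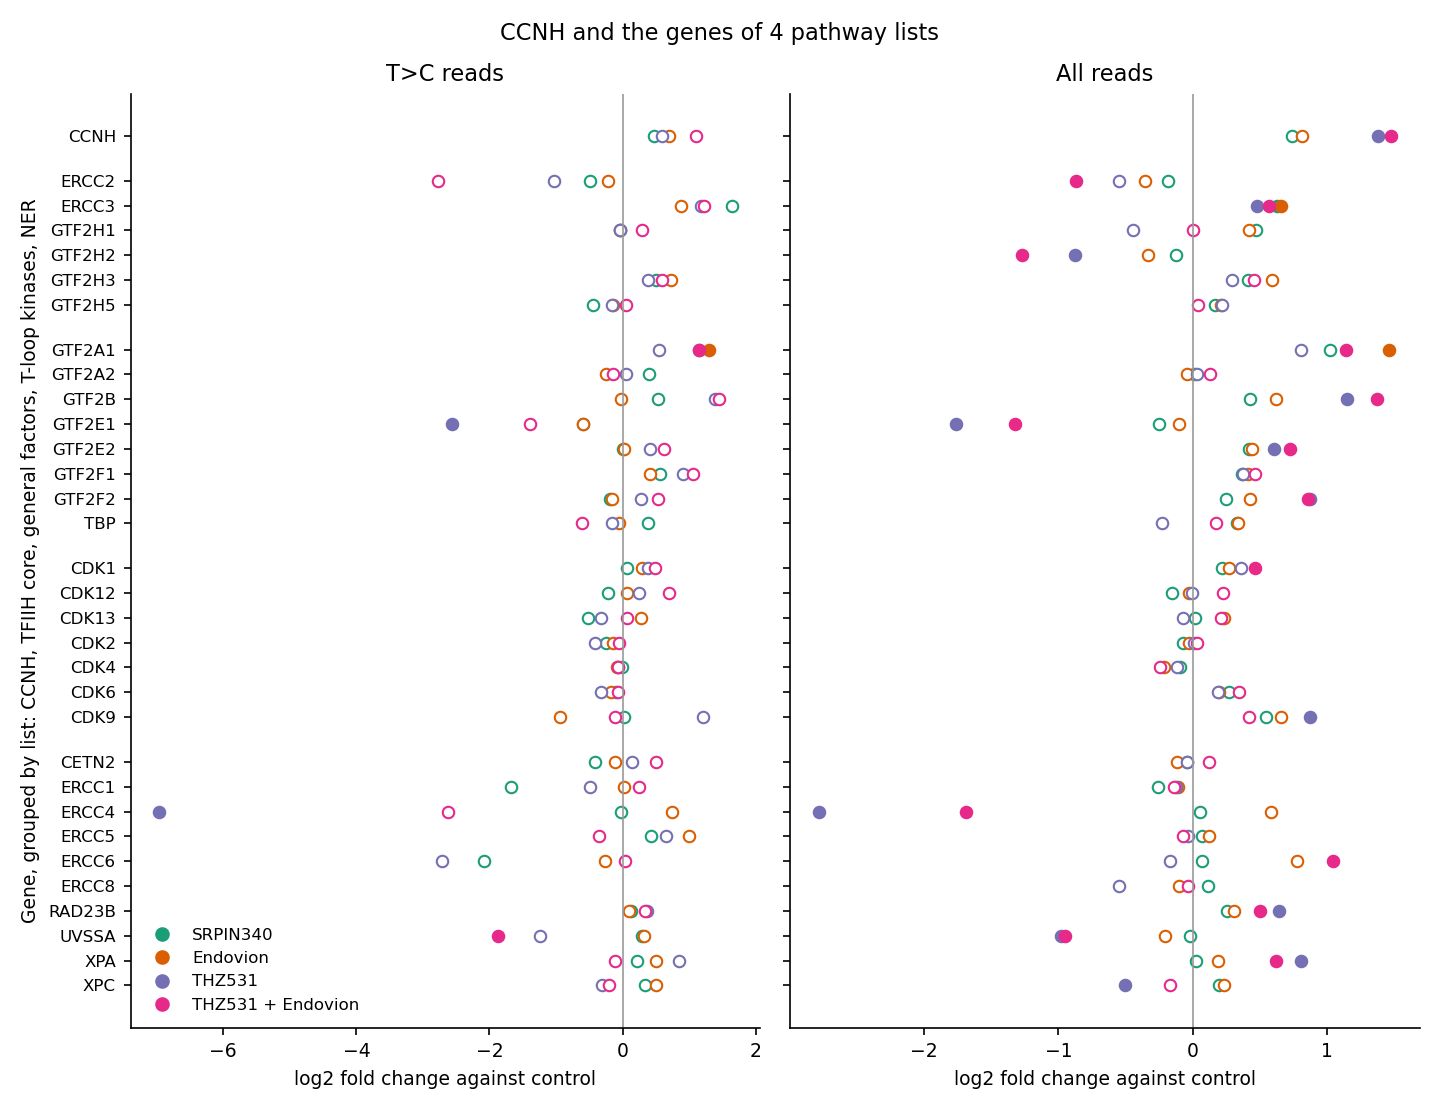
Fitted log2 fold change against control of CCNH and of the tested genes of the 4 pathway lists (NER, nucleotide excision repair) in T>C reads (left) and all reads (right), with different horizontal scales. Colours give the treatment and filled points an adjusted p under 0.05. The far left point of ERCC4 comes from 0 T>C reads in both THZ531 libraries and depends on the fit's prior count, and the 4 genes with a filled point in T>C reads are GTF2A1, GTF2E1, ERCC4 and UVSSA.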

How the data were processed

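The authors mapped single-end reads of 3′ end libraries to hg38 and ran SLAM-DUNK, whose version, settings and masking of variants are not given in the sources used here; their processing notes name Bowtie2 2.3.4.1, SAMtools 1.6 and DESeq2 1.38.2. Per library they deposited a table of 3′ UTR intervals with raw counts (reads, reads with T>C, conversions, read bases over T), which were used here. The deposited conversion rate, a fraction, and the read CPM, a score here, were not used. The T content of 90357 of 90357 distinct intervals equalled that of hg38, with no tolerance. The library kit added molecular identifiers, but whether the counts used them is not stated, so Wilson intervals and floors of 3 counts cover counting error only.

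Intervals were matched to genes by transcript (92910 of 104653; 8226 on alternative contigs were left out of the genes), and 3.53% of T>C reads lay on unmatched intervals. Where a gene's intervals overlapped, only that with the highest read total stayed, and the 57437 intervals left were summed per gene. T>C reads (9946 genes) and all reads (14690 genes) were each fitted across 10 libraries with edgeR 4.0.16 (R 4.3.3; TMM scaling, filterByExpr, robust quasi-likelihood test, 5 residual degrees of freedom). The labelled share was tested as the interaction of read class and group over 20 columns. Calls are at a Benjamini-Hochberg adjusted p under 0.05.

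Members and lists were chosen with earlier results of these data known. By rule the genes named were the members, list genes called in T>C reads, neighbours within 50 kb with at least 20 reads in every library, and the genes most like MNAT1 (5, log2 odds with 0.5 added) or CCNH (3). Others, such as list genes called only in total RNA, GTF2H4, TUBB, EIF4E3 and H2BC5, were named after their values were seen. Replicate libraries differed beyond sampling noise in all groups (chi-square per degree of freedom 15.1 to 23.7). On simulated data 36.5% of genes changed by a log2 of 1 and 73.5% of those changed by 2 were recovered in T>C reads of THZ531 against control (9499 genes). In the labelled share fewer were recovered, 16.0% of genes changed by 1 and 57.0% of those changed by 2 (9946 genes). Alternatives were DESeq2 1.42.0, no filter, the plain sum of intervals, each interval by itself, other scalings, the study's threshold, a replicate block and leaving out each replicate.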

Additional observations from a re-analysis of the deposited data

How the results depend on the processing

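The 3 measures of MNAT1 kept their direction in all alternatives run, and the calls of CCNH in total reads with THZ531 and with both drugs stayed. Leaving out 1 library moved 11 values of MNAT1 by more than the SD between replicates and left 37 within it. Other settings moved 4 of its values and left 60 within that SD. Its short interval by itself gave 5.04 with SRPIN340 and 5.09 with both drugs in T>C reads, and the ratio of its mean share with both drugs over control was 5.39 in the plain sum and 5.49 for conversions over covered T positions. With 1 library left out, the log2 difference of MNAT1 in T>C reads ranged from 4.48 to 5.04 (SRPIN340) and from 4.55 to 5.11 (both drugs), in total reads from 0.97 to 2.55 (SRPIN340), 1.37 to 2.95 (Endovion), 1.21 to 3.19 (THZ531) and 1.42 to 3.0003 (both drugs), and in share from 2.78 to 5.003 (SRPIN340), 2.23 to 4.45 (Endovion), 2.44 to 4.67 (THZ531) and 2.10 to 4.32 (both drugs).

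CCNH passed in total reads without the filter with SRPIN340 (0.70) and Endovion (0.78) and under DESeq2 with Endovion (0.78). With 1 library left out, its T>C reads ranged from −0.041 to 1.25 with SRPIN340, −0.21 to 1.48 with Endovion, −0.10 to 1.375 with THZ531, 0.49 to 1.89 with both drugs, −0.10 to 1.20 for the combination against THZ531 and −0.21 to 1.31 against Endovion, its total reads from 0.38 to 1.17 with SRPIN340 and 0.45 to 1.25 with Endovion, and its share from −0.38 to 0.18 with SRPIN340, −0.69 to 0.32 with Endovion and −0.93 to 0.22 with both drugs.

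Counting each pair of a list gene call and an alternative, the call held in 144 pairs and was lost in 27, and with a library left out it held in 94 pairs and was lost in 54. The numbers of genes called moved more. In T>C reads they were 156 without the filter with SRPIN340, 454 under DESeq2 with THZ531, 2, 46, 247 and 272 in the plain sum (SRPIN340, Endovion, THZ531, both drugs), 219, 550, 1406 and 1504 by single intervals, and 463, 645 and 1193 at the study's threshold (SRPIN340, Endovion, THZ531). In total reads with SRPIN340 they were 880 under DESeq2, 1211 without the filter and 10 in the plain sum. In share they were 1, 1, 1 and 3 in the plain sum and 6, 27 and 9 (SRPIN340, Endovion, THZ531) with 1 library size for both classes. With 1 library left out, they ranged in T>C reads from 12 to 214, 89 to 401, 241 to 679 and 317 to 823, in total reads from 3 to 1437, 226 to 2368, 2022 to 4286 and 2220 to 4197, and in share from 1 to 64, 5 to 94, 5 to 90 and 9 to 181. The causes were not tested.

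In scaled T>C reads, libraries with the same replicate number did not deviate together: over 10 pairs the correlation of these deviations was −0.0713 to 0.0620. Counting noise lowers such a correlation and total reads were not checked, so whether the replicates were paired was not settled. With the replicate block the count in total reads with SRPIN340 was 96, and CCNH with THZ531 in total reads was at 1.37 (edgeR adjusted p = 0.0101). MNAT1 has only 1 kept interval, so leaving out the one with most T>C reads was not run, and CDK7 gives no value in any alternative.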

Other observations

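HMGB2, which resembled MNAT1 in labelled share, also resembled it in the size of its differences from control cells. These were 5.19, 5.42, 5.49 and 5.22 on the log2 scale in T>C reads with SRPIN340, Endovion, THZ531 and both drugs, with standard errors of 0.54 to 0.55, and 2.27, 2.73, 2.79 and 2.47 in total reads, with standard errors of 0.76 to 0.78. A T>C read of HMGB2 carried 1.04 conversions at the least and 1.82 at the most over the 10 libraries, the latter in a control library. HMGB2 was chosen by its likeness to MNAT1 across the same libraries, so these values are a description without a test.

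Among the other genes with a labelled share above both control libraries in all 8 treated libraries were EIF4E3 and H2BC5. EIF4E3, a relative of the cap-binding protein eIF4E, was at 2.36 and 2.56% in control cells and 6.41 to 13.1% in treated cells, and H2BC5, a histone H2B gene, at 0.752 and 1.03% and at 2.86 to 12.8%. These genes were picked after their values were seen.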
